A study of Mus musculus with 8 samples.

Results

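Undifferentiated hippocampal neural progenitors labelled Kmt2d+/βgeo were compared with those labelled wild type, gene by gene and family by family. The cells compared were those of both libraries collected at day 0, while growth factors were still present. They numbered 4331 in the Kmt2d+/βgeo library and 4857 in the wild-type library, 9188 of the 30408 cells in the series. Both cultures came from dentate gyrus microdissected at embryonic day 18 by the labels (day 17 in the study's methods), from a cross of C57BL/6J females with Kmt2d+/βgeo males. Both were kept undifferentiated with EGF and FGF2 in Neurobasal medium and profiled by droplet sequencing of RNA 3′ ends. The Kmt2d+/βgeo cells carry the gene-trap allele Mll2Gt(RRt024)Byg. The control cells are described as Kmt2d+/+ littermates in the growth protocol, whereas their strain label is C57BL/6J. Neither source says how many embryos were pooled or whether the libraries came from one litter.

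Kmt2d is a large histone methyltransferase of the COMPASS family. It places methyl groups on lysine 4 of histone H3, mostly at enhancers, and it works in a complex with the histone H3 lysine 27 demethylase Kdm6a. Loss of 1 KMT2D copy causes Kabuki syndrome in people, and heterozygous mice are used as a model of it. Progenitors of the dentate gyrus divide in response to EGF and FGF2 and give rise to granule neurons and glia, and their regional identity is held by transcription factors that also respond to positional signals such as retinoic acid.

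There was 1 library per genotype, so no test was possible. Genotype, culture, litter and capture cannot be told apart, and every direction is given by the label of the library. Each gene was compared by its mean normalised count per cell, and the log2 ratio is always Kmt2d+/βgeo over wild type. Intervals are 95% intervals of the ratio of summed UMIs (unique molecular identifiers, each marking 1 captured RNA molecule) and cover counting error only. The libraries held medians of 23219 and 20434 total UMIs per cell, with Kmt2d+/βgeo first here and below, and 11229 and 9401 UMIs on the genes of the deposited matrix. A total of 7 cell barcodes occurred in both. Kmt2d itself (ENSMUSG00000048154) was at 0.193 and 0.157 normalised counts per cell, with a log2 ratio of 0.30 from the means and 0.19 (0.059 to 0.31) from summed UMIs, so its level did not show a halving in the library labelled Kmt2d+/βgeo. Of the 9 neural progenitor markers, 5 were in the matrix, and Vim (35.4 and 30.3), Fabp7 (34.6 in Kmt2d+/βgeo, log2 ratio 0.36) and Slc1a3 (7.97 and 9.64, log2 ratio -0.27) were abundant in both libraries. Notch1 (1.17 and 1.12) and Pax6 (0.202 and 0.228) were lower in level. Marker lists of microglia, endothelial, mural, meningeal, ependymal, choroid plexus, neural crest and erythroid cells had 0 genes in the matrix, so such cells could not be looked for.

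The level of most genes was close in both libraries, and a minority differed past 1.4-fold. Of 7117 genes with a mean of at least 0.1 in either library, 48 (0.674%) were at least 2-fold higher in Kmt2d+/βgeo and 62 (0.871%) at least 2-fold lower. At a log2 ratio of 0.5, called 1.4-fold here, 248 (3.48%) were higher and 433 (6.08%) lower. These counts depend on the scale and on low genes. As differences of mean log2 values, a scale that shrinks low genes, they became 1 and 1 past 2-fold and 22 and 21 past 1.4-fold, and with a mean of at least 0.5 they became 12 and 15, and 116 and 187. The median log2 ratio of all genes was -0.037 with an SD of 0.34, and 3169 lay above 0 against 3948 below. These counts over all genes are the background of every list described below. Of the 48 higher genes, all 48 had a counting interval above 0, and the bound nearest to 0 was 0.75. For the 62 lower genes all 62 intervals lay below 0, with the nearest bound at -0.82. Both sets were chosen by their ratio, and their medians were 529 and 561 UMIs in the library with fewer. Intervals clear of 0 therefore follow largely from that choice. A counting interval does not measure how far 2 cultures of the same genotype would differ.

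**Figure D1:**
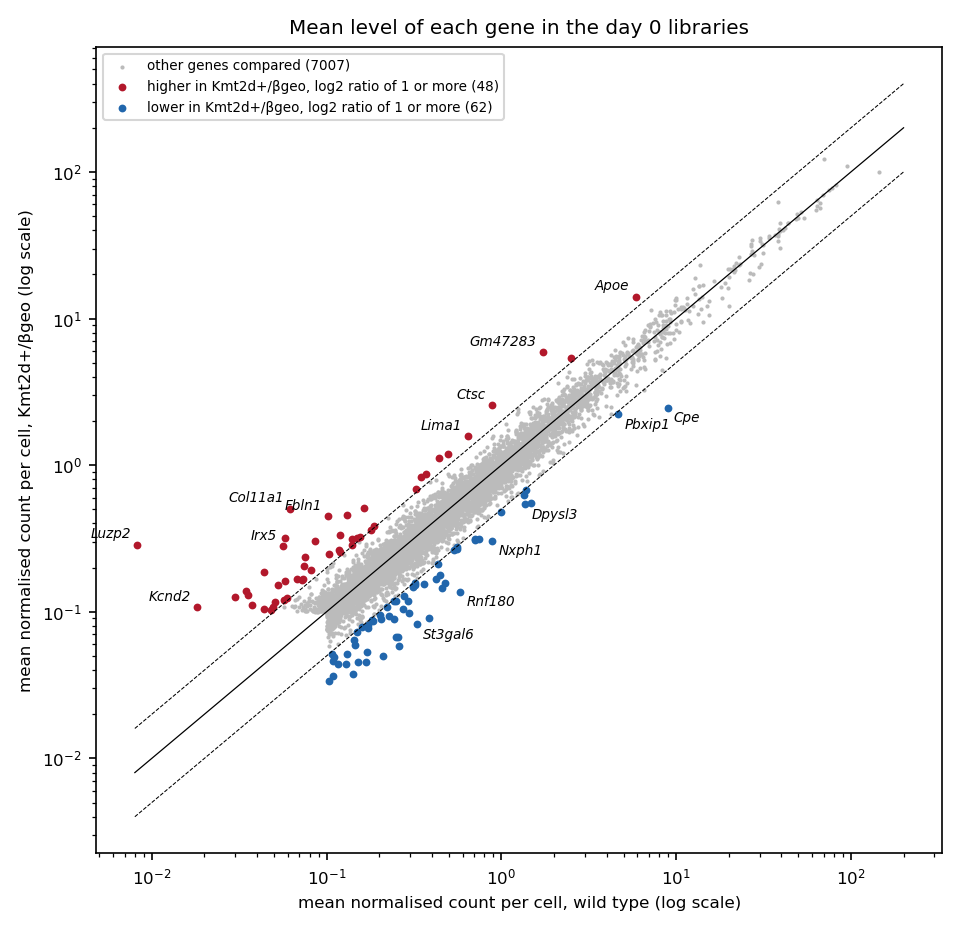
Mean normalised count per cell of each gene in wild type (x axis) and Kmt2d+/βgeo (y axis) at day 0, both on log scales, with 1 point per gene and dashed lines at 2-fold. The 48 higher genes (red) and 62 lower genes (blue) are mostly of low level, and Apoe, Gm47283, Ecrg4, Ctsc, Cpe and Pbxip1 are the 2-fold genes with a mean above 2 in at least 1 library.

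Some genes that give cells a position along the body axis or within the brain differed past 2-fold, in both directions. Irx5, an Iroquois homeobox factor of midbrain and hindbrain patterning (ENSMUSG00000031737, GRCm38 chromosome 8, 92357625 to 92376286), was at 0.281 and 0.0565, a log2 ratio of 2.32. Its pooled ratio was 2.31 (2.15 to 2.48). Nr2f2, also called COUP-TFII, marks caudal and ventral parts of the forebrain (chromosome 7, 70351944 to 70366735). It was at 0.304 and 0.0864, a ratio of 1.81. The homeobox factor Meis1, a partner of Hox and Pbx proteins (chromosome 11, 18879817 to 19018985), was at 0.385 and 0.188, a ratio of 1.04. Its close relative Meis2 (chromosome 2, 115863064 to 116065839) stood on the other side, at 0.311 and 0.706, a ratio of -1.18. Pbxip1, which binds Pbx proteins, was lower as well (2.23 and 4.65, ratio -1.06) and was one of the more abundant genes past 2-fold.

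Of genes tied to retinoic acid, 3 were past 2-fold higher. Aldh1a1, an enzyme that makes retinoic acid, was at 0.103 and 0.0480 (ratio 1.10). Rarb, a retinoic acid receptor and itself a target of the pathway, was at 0.116 and 0.0507 (ratio 1.20). Hotairm1, a noncoding RNA of the HOXA cluster that retinoic acid is known to induce, was at 0.508 and 0.163 (ratio 1.64). Hotairm1 is annotated as antisense and Rarb overlaps Top2b (ratio -0.13) on the opposite strand. The sources used here do not say whether counting used strand. These 3 genes, all from the higher side, were put together after their values were seen. No list of such genes was counted, so lower ones were not looked for. Thrb, the thyroid hormone receptor beta, was lower at 0.0458 and 0.109 (ratio -1.25), and so were the developmental cofactors Eya1 (-1.10) and Eya4 (-1.18).

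Over the whole homeobox list the counts were balanced, with 3 of 26 genes past 1.4-fold higher, 3 lower and a median of -0.068. The third higher member was Hopx, at 0.435 and 0.226 (ratio 0.94). Of 49 ventral, midbrain and hindbrain factors listed, only 6 were in the matrix, with 3 above 0, 3 below and a median of 0.083. Irx5 and Foxp2 (ratio 0.56) were past 1.4-fold higher and Zic4 (ratio -0.76) was past it lower. Of 12 forebrain and hippocampal factors, 1 was past 1.4-fold higher and 3 lower, with a median of -0.16. The lower ones were Meis2, Zbtb20 and Nfix. Zbtb20, a determinant of hippocampal identity, was at 3.52 and 5.88 (ratio -0.74), and Nfix, a nuclear factor I protein of stem cell quiescence and glial genes, at 3.65 and 5.22 (ratio -0.52). The SOX, FOX and KLF list leaned lower, with 17 of 22 genes below 0, 6 past 1.4-fold lower, 1 higher and a median of -0.27. Among all 7117 genes, 3948 lay below 0 and 6.08% were past 1.4-fold lower. Its most abundant member in wild type was Sox9, a stem cell and glial factor, at 1.61 and 2.72 (ratio -0.75). Olig2, a factor of dividing progenitors and the oligodendrocyte lineage, was at 5.53 and 8.09 (ratio -0.55). A UMI of Olig2 was found in 92.0% and 97.5% of cells. The other oligodendrocyte lineage marker in the matrix, Bcas1, a gene of early myelinating cells, lay on the other side at 0.768 and 0.392 (ratio 0.97).

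Luzp2, a leucine zipper protein expressed in brain (ENSMUSG00000063297, chromosome 7, 54835498 to 55268885), had the highest ratio, at 0.287 and 0.00824 from 1497 and 41 UMIs. The promoters of Luzp2, of 2 other higher genes and of Ntrk2, a receptor gene past 2-fold lower, are given for orientation, because the study's altered allele lies in an enzyme of promoter and enhancer chromatin. Each runs from 250 bases before to 50 bases after a RefSeq start on GRCm38.p6, and other starts of these genes were not looked at. The sequences are written 5′ to 3′ on the strand of the gene, with each CG dinucleotide in capitals. A total of 41 of the 48 higher and 44 of the 62 lower genes matched the RefSeq promoter table by symbol.
Luzp2, chr7:54834995-54835294, plus strand: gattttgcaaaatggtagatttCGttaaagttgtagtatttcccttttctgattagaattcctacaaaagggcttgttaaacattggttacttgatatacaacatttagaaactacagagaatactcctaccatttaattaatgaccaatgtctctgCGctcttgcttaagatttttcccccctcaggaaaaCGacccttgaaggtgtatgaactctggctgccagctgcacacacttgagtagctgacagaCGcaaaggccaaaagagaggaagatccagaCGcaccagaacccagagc
Col11a1, chr3:114030290-114030589, plus strand: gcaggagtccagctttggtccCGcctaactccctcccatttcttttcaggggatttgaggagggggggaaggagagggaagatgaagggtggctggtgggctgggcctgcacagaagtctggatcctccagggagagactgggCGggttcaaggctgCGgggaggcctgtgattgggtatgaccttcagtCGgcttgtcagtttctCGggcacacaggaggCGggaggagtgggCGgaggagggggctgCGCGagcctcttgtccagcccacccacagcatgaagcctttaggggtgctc
Nr2f2, chr7:70366697-70366996, minus strand: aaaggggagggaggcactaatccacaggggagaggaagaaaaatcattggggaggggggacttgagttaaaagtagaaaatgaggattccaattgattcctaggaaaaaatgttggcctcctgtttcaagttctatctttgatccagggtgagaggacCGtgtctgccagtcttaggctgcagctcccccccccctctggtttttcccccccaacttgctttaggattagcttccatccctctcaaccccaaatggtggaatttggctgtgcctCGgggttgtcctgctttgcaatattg
Ntrk2, chr13:58806319-58806618, plus strand: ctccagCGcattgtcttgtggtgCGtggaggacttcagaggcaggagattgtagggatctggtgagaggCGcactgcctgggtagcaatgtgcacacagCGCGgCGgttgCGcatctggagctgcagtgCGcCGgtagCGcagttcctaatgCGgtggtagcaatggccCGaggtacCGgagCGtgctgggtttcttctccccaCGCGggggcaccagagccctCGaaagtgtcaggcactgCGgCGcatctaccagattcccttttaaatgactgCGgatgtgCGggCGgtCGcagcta
CG occurred 5 times in the Luzp2 window, 9 times in that of Col11a1, 2 times in that of Nr2f2 and 23 times in that of Ntrk2. The median over the 5753 compared genes with a window was 23, and 90.4% of them held 10 or more. These counts describe the letters of 4 chosen windows only. The genes were picked without a stated rule, so the counts show no CG pattern of higher or lower genes. They also do not describe promoters at other starts of these genes. Higher and lower genes were not compared in CG, and no chromatin was measured in these cells.

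Transcripts of the extracellular matrix differed in both directions. Col11a1, a fibril-forming collagen chain (ENSMUSG00000027966, chromosome 3, 114030540 to 114220718), was at 0.505 and 0.0617 (ratio 3.03), and 15.1% against 2.43% of cells held a UMI of it after each cell was thinned to 3000 UMIs (42.3% and 6.61% unthinned). Thinning left out 24 and 0 shallower cells. These cells hold no defined type that would be free of Col11a1, so the part of free RNA in such shares has no measured background here. Col5a3, another fibrillar chain, was at 0.168 and 0.0677 (ratio 1.32). The family was not of 1 direction, since Col5a2 (0.608 and 1.14, ratio -0.90) and Col28a1 (0.321 and 0.607, ratio -0.92) were lower. Of 8 collagens compared, 3 were past 1.4-fold higher and 2 lower, with a median of 0.41, which became -0.25 when a mean of 0.5 was required.

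Fbln1, a matrix glycoprotein of basement membranes (chromosome 15, 85205949 to 85286535), was at 0.450 and 0.102 (ratio 2.14). Vcan, a chondroitin sulphate proteoglycan, was at 0.787 and 0.423 (ratio 0.89), and Sparc, a secreted collagen-binding protein, at 11.5 and 7.21 (ratio 0.67). Its relative Sparcl1, an astrocyte protein that promotes synapses, was at 3.27 and 6.52, just short of the 2-fold threshold. The matrix protein Npnt (0.168 and 0.425, ratio -1.34) and the hyaluronan-associated Itih5 (0.0975 and 0.297, ratio -1.61) were lower. Among 23 other matrix genes 6 were past 1.4-fold higher and 4 lower, and the median of 0.23 became -0.0076 when a mean of 0.5 was required. In the list of 15 matrix proteases and inhibitors 5 were past 1.4-fold lower and 1 higher, against 6.08% and 3.48% of all genes. Of its 13 proteases that cut matrix or shed membrane proteins 4 were past 1.4-fold lower and 0 higher, 9 lay below 0 and the median was -0.10. Mmp14, a membrane-bound collagenase, was at 0.0879 and 0.183 (ratio -1.06). Adamts5, which cleaves proteoglycans, was at 0.169 and 0.331 (ratio -0.97). The inhibitors were split, with Timp2 at 1.32 and 0.831 (ratio 0.67) and Timp3 at 0.644 and 0.961 (ratio -0.58). The median of all 15 was between -0.20 and 0.22 over the alternatives, with no fixed sign.

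Over 33 tubulin, actin and filament genes 5 were past 1.4-fold higher and 3 lower, with 16 above 0 and a median of -0.026. Some genes that organise actin filaments, put together after their values were seen, were past 1.4-fold higher. Lima1, which bundles and stabilises filaments, was at 1.57 and 0.647 (ratio 1.28). The crosslinkers Actn1 (0.192 and 0.0812, ratio 1.24) and Actn4 (0.871 and 0.493, ratio 0.82) shared that side. Tmsb4x, which holds actin monomers, was among the most abundant transcripts of these cells at 122 and 69.7 (ratio 0.81). Others with roles in the cytoskeleton were past 2-fold lower. Dpysl3, a collapsin response mediator, was at 0.543 and 1.37 (ratio -1.33), and the microtubule guide Nav1 at 0.630 and 1.34 (ratio -1.09).

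Some neural adhesion molecules and some enzymes that add sialic acid to proteins or lipids also differed. Nfasc, a cell adhesion molecule of axons and nodes, was at 0.152 and 0.0525 (ratio 1.53). Its binding partner Cntn1 was at 0.165 and 0.0720 (ratio 1.19). Ncam1, the neural cell adhesion molecule, was at 2.22 and 1.23 (ratio 0.86). Past 1.4-fold lower were Nrcam (ratio -0.74), Ntm (-0.64), Lrrc4c (-0.55) and Opcml (-0.51). St8sia2, which adds polysialic acid to Ncam1, was at 0.104 and 0.0438 (ratio 1.25, chromosome 7, 73939119 to 74013690). Of 7 enzymes that add a single sialic acid 3 were past 1.4-fold lower and 2 higher. St3gal6 (chromosome 16, 58468125 to 58524243) was at 0.0821 and 0.328, a pooled log2 ratio of -2.07. St6galnac5 was at 0.0375 and 0.142 (ratio -1.92). On the higher side, St3gal4 was at 0.298 and 0.153 (ratio 0.96) and St3gal5 at 0.127 and 0.0692 (ratio 0.87). The glycosyltransferase list also holds sulphotransferases, such as Hs6st2 (ratio 0.92), and the mannosidase Man2c1 (0.14). Of its 46 genes 4 were past 1.4-fold higher and 5 lower, with a median of -0.072. Of 34 adhesion molecules of the immunoglobulin and synaptic groups 7 were higher and 4 lower, with a median of -0.10.

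Of 8 semaphorins and plexins, which steer axons, 3 were past 1.4-fold higher and 1 lower, with a median of 0.25. The list as written also holds Plxdc2 and the neuropilins, and its 11 genes had 5 higher, 1 lower and a median of 0.33, which lay between 0.045 and 0.75 over the alternatives. Plxdc2, a plexin-domain membrane protein (chromosome 2, 16356304 to 16755839), was at 0.320 and 0.0576 (ratio 2.47). Sema5a and Sema6a, membrane-bound semaphorins, were at 0.202 and 0.104 (ratio 0.96) and at 0.186 and 0.101 (ratio 0.88). Nrp2, a semaphorin coreceptor, was at 0.113 and 0.0710 (ratio 0.68). The exception was Plxnc1, a semaphorin receptor, at 0.107 and 0.221 (ratio -1.04). Epha5, an ephrin receptor, was lower at 1.04 and 1.97 (ratio -0.92), as was Chn1, which acts below such receptors, at 0.315 and 0.743 (ratio -1.24).

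**Figure D2:**
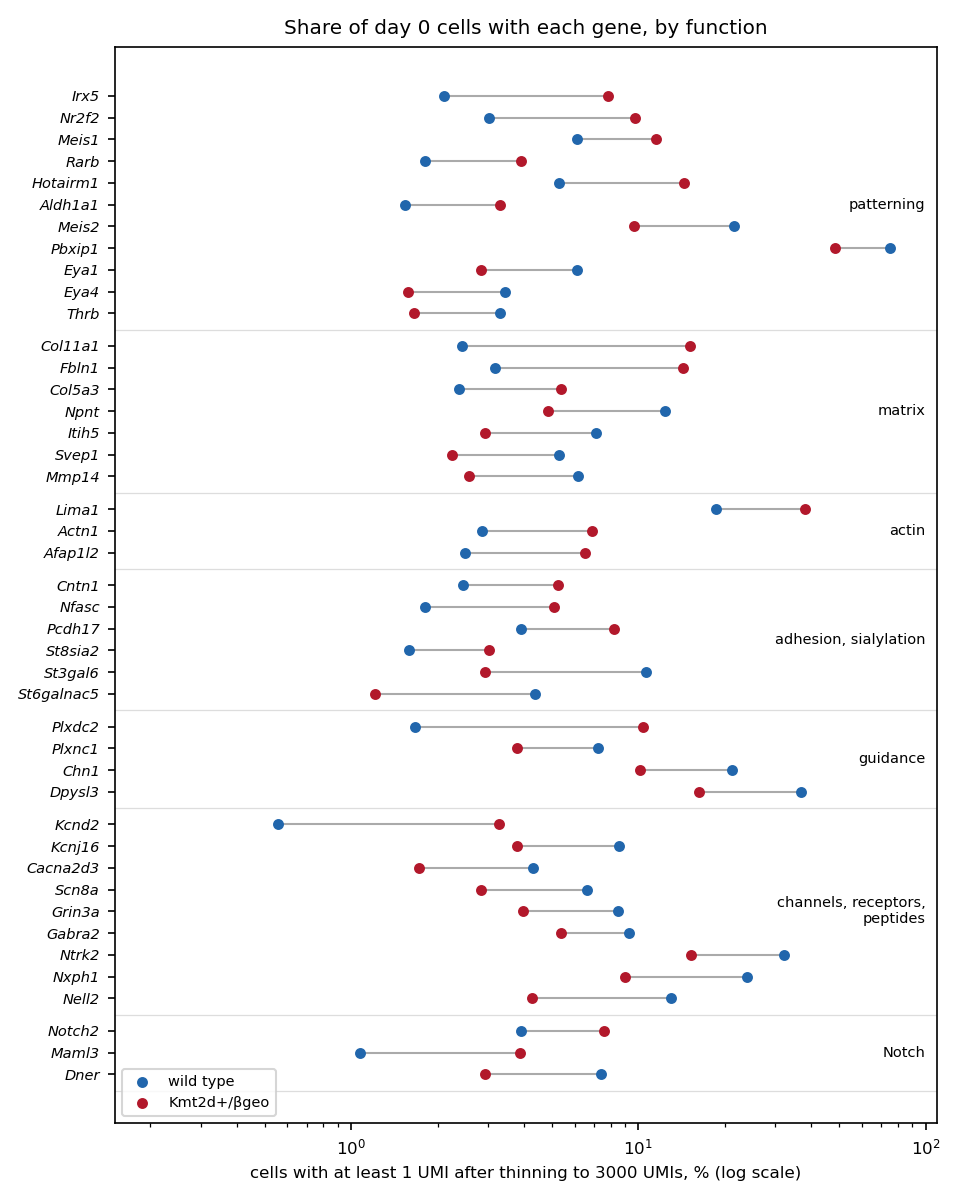
Percentage of day 0 cells with at least 1 UMI of each gene (x axis, log scale) after each cell was thinned to 3000 UMIs, for genes past 2-fold grouped by function, with 1 point per library. The genes drawn are a selection that leaves out Cpe and Luzp2. Among the wild-type points drawn, Pbxip1 has the highest share at 75.1% and Kcnd2 the lowest at 0.556%, and the Kmt2d+/βgeo shares of these genes were 48.5% and 3.28%.

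Receptors for glutamate, GABA and glycine leaned lower, with 5 of 13 past 1.4-fold lower, 0 higher, 9 below 0 and a median of -0.45. Past 1.4-fold lower were 6.08% of all genes, and 3948 of 7117 lay below 0. The list as written also holds the receptor-binding proteins Grip1 (0.107 and 0.168, ratio -0.66) and Gripap1 (0.430 and 0.379, ratio 0.18), and over its 15 genes the median was likewise -0.45, the lowest of the 61 lists with at least 3 genes compared. Over the alternatives that median lay between -0.55 and -0.043, the latter for differences of mean log2 values. Grm5, a metabotropic glutamate receptor and the most abundant of them, was at 1.84 and 2.98 (ratio -0.69). Gria2, the AMPA receptor subunit that limits calcium entry, was at 1.21 and 2.25 (ratio -0.89). The NMDA receptor subunit Grin3a was at 0.119 and 0.291 (ratio -1.29), and the GABA-A subunit Gabra2 at 0.157 and 0.319 (ratio -1.02). The highest ratio in the list was that of Gria3, an AMPA subunit, at 0.47 (1.24 and 0.897).

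Sodium, calcium, chloride and TRP channels had a median of -0.30, with 3 of 18 past 1.4-fold lower and 1 higher. For all genes these shares were 6.08% and 3.48%. Cacna2d3 and Cacna2d1, auxiliary subunits that carry calcium channels to the membrane, were at 0.0442 and 0.129 (ratio -1.55) and at 0.236 and 0.422 (ratio -0.84). The sodium channel Scn8a was at 0.0894 and 0.205 (ratio -1.20). Of 12 Kcn genes, which encode potassium channels and their partners, 5 were past 1.4-fold lower and 1 higher, 10 lay below 0 and the median was -0.37. The list as written also holds KCTD genes, which are not channel subunits, and an antisense RNA, and its 22 genes had a median of -0.017 with 5 lower and 2 higher. The narrower counts, for receptors, potassium channels, proteases, semaphorins and sialic acid enzymes, were made after the values were seen. Kcnj16, an inward rectifier of glia, was at 0.104 and 0.274 (ratio -1.39), whereas Kcnd2, a fast A-type channel (chromosome 6, 21215503 to 21729805), was higher at 0.107 and 0.0181 (ratio 2.56, from 567 and 93 UMIs).

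Secreted factors and trophic receptors were found on both sides. The list of FGF, EGF, PDGF and related ligands and receptors had 2 of 17 past 1.4-fold higher, 2 lower and a median of -0.088. Cpe, which processes peptide hormones and is secreted by progenitors and astrocytes (ENSMUSG00000037852, chromosome 8, 64592542 to 64693054), was at 2.47 and 8.94, a ratio of -1.86. Among genes past 2-fold it was the most abundant of the lower ones, and 52.9% and 88.0% of thinned cells held a UMI of it (88.1% and 99.4% unthinned). Its pooled ratio was -1.83 (-1.86 to -1.80). Ntrk2, the receptor of the neurotrophin BDNF (chromosome 13, 58806569 to 59133970), was at 0.551 and 1.48 (ratio -1.43). Nxph1, a neurexin ligand, was at 0.305 and 0.888 (ratio -1.54), and the secreted factor Nell2 at 0.157 and 0.476 (ratio -1.60). On the higher side were Erbb4, a neuregulin receptor, at 0.167 and 0.0872 (ratio 0.94) and the secreted BMP regulator Vwc2 (ratio 1.65). Both libraries came from undifferentiated cultures. Of the 8 neuron markers listed only 2 were in the matrix, and of these Map2 alone was high enough to compare, at 2.86 and 2.93.

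Among signalling pathways, Notch had genes past 2-fold on both sides. Notch2, a receptor (chromosome 3, 98013527 to 98150361), was at 0.256 and 0.120 (ratio 1.10), though its pooled ratio of 0.88 (0.75 to 1.02) lay short of 2-fold. Maml3, a coactivator of cleaved Notch, was at 0.127 and 0.0298 (ratio 2.09), whereas its paralogue Maml2 was at 0.665 and 1.03 (ratio -0.63). Dner, a noncanonical ligand, was at 0.0933 and 0.227 (ratio -1.28). The receptor Notch1 was close in the libraries (ratio 0.064), and the 16 genes had a median of 0.025.

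The growth factors in the medium act through EGF and FGF receptors and MAP kinases. Of 22 MAP kinase targets and feedback genes, 18 lay below 0, 3 were past 1.4-fold lower and 1 higher, with a median of -0.15. The shares past 1.4-fold in all genes were 6.08% lower and 3.48% higher. Etv5, a transcriptional target of FGF signalling, was at 2.12 and 3.60 (ratio -0.76), and the feedback inhibitor Spry2 was at 0.943 and 0.589 (ratio 0.68). Hbegf, an EGF receptor ligand, was at 1.54 and 0.887 (ratio 0.80), but at a ratio of -0.93 in the few cells without an Olig2 UMI. In the WNT list 17 of 21 genes lay below 0, where 3948 of all 7117 genes did. The median was -0.20 and lay between -0.36 and -0.031 over the alternatives. Past 1.4-fold were 2 lower and 0 higher. The lower ones were the ligand Wnt5a at 0.873 and 1.67 (ratio -0.93) and Vangl1, a planar polarity protein, at 0.253 and 0.424 (ratio -0.74, and 0.11 without an Olig2 UMI). The 23 BMP and TGF-beta genes had a median of -0.064. In that list Id3, a target of BMP signalling, was at 3.22 and 2.24 (ratio 0.52), and the BMP receptor Bmpr1b at 0.0857 and 0.170 (ratio -0.99).

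Some glial and abundant genes fell outside these lists and were picked after their values were seen. Ednrb, the endothelin receptor of astrocytes and progenitors, was at 2.22 and 4.25 (ratio -0.94), and Mlc1, a membrane protein of astrocyte endfeet, at 3.02 and 4.57 (ratio -0.60). Lgals1, a carbohydrate-binding protein of neural stem cells, was at 23.1 and 13.7 (ratio 0.75). Dbi, the acyl-CoA binding protein that also acts on GABA-A receptors, was at 62.5 and 38.1 (ratio 0.71). The astrocyte marker list itself was split, with Apoe higher, S100b at 0.799 and 0.578 (ratio 0.47) and the glutamate transporter Slc1a2 at 0.498 and 0.721 (ratio -0.53).

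Metabolic genes differed by family. Median gene span also differed by list, at 8.11 kb for oxidative phosphorylation, 9.56 kb for mitochondrial ribosomal proteins, 15.9 kb for the proteasome and 184 kb for the glutamate, GABA and glycine receptors, against 33.3 kb over all genes. The ratio moved with span over all genes, and its part in these leans was not tested. As background, 3948 of all 7117 genes lay below 0 and 3169 above, with 6.08% past 1.4-fold lower and 3.48% higher. Glycolysis and the hypoxia response leaned lower, with 16 of 19 genes below 0, 4 past 1.4-fold lower, 1 higher and a median of -0.30. The glucose transporter Slc2a1 was at 0.0793 and 0.160 (ratio -1.02), Pkm, which makes pyruvate, at 10.5 and 15.4 (ratio -0.54), and Pgk1, an earlier enzyme of glycolysis, at 4.54 and 6.61 (ratio -0.54). The oxidative phosphorylation list, which holds subunits and also the assembly factor Ndufaf2, leaned higher by a small amount. Of its 71 genes 51 lay above 0, 6 were past 1.4-fold higher and 1 lower, with a median of 0.17. Mitochondrial ribosomal proteins were alike, with 41 of 48 above 0 and a median of 0.15. The ratio of Ndufa1, a complex I subunit, was 0.66 (2.29 and 1.45), and that of Mrpl33 was 0.79 (3.65 and 2.11). Cytosolic ribosomal proteins were centred on 0, with a median of 0.0090 over 48 genes. Eef1a1, the factor that brings tRNAs to the ribosome, was at 99.9 and 145 (ratio -0.54).

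Lysosomal genes stood lower, with 35 of 48 below 0, 6 past 1.4-fold lower and a median of -0.15. Among all 7117 genes, 3948 lay below 0 and 6.08% were past 1.4-fold lower. Psap, the precursor of the saposins, was at 4.44 and 8.30 (ratio -0.90). The protease Ctsc (chromosome 7, 88278085 to 88310888) was the 1 member past 1.4-fold higher, at 2.58 and 0.889 (ratio 1.53). Lipid genes were mixed, and Apoe, the main lipid carrier of astrocytes, was at 14.1 and 5.88 (ratio 1.26) while Mgll, which breaks down monoacylglycerol, was at 0.0727 and 0.149 (ratio -1.04). Of antioxidant genes Txn1, thioredoxin, was at 12.1 and 20.1 (ratio -0.73) and Nqo1, a quinone reductase, at 0.119 and 0.242 (ratio -1.03), with 0 of 30 past 1.4-fold higher, 3 lower, 15 above 0 and a median of -0.0018. On summed UMIs Slc2a1 (-0.99), Mgll (-0.99) and Nqo1 (-0.98) lay just short of 2-fold.

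The proteasome leaned higher, with 27 of 36 genes above 0, 4 past 1.4-fold higher, 0 lower and a median of 0.22. Among all 7117 genes, 3169 lay above 0 and 3.48% were past 1.4-fold higher. Psma3, a core subunit, was at 3.87 and 2.53 (ratio 0.61). Cytosolic chaperones had a median of 0.21 over 30 genes, with 1 past 1.4-fold on each side. These were the small heat-shock protein Cryab at 2.30 and 1.25 (ratio 0.88) and the cochaperone Bag3 at 0.222 and 0.404 (ratio -0.86). The ubiquitin ligase families leaned lower, with 77 of 103 below 0, 2 past 1.4-fold higher and a median of -0.14. Past 1.4-fold lower were 8, near the 6.08% of all genes. Rnf180 was at 0.137 and 0.583 (ratio -2.09), Fbxo32 at 0.0531 and 0.171 (ratio -1.69) and Trim2 at 0.0888 and 0.244 (ratio -1.46).

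DNA replication genes were higher in 28 of 29 cases, with 4 past 1.4-fold and a median of 0.31. Higher at all were 3169 of the 7117 genes, and 3.48% were past 1.4-fold higher. Mcm4, a subunit of the replicative helicase, was at 0.528 and 0.330 (ratio 0.68), and, outside this list, Hells, a remodeller of dividing cells, was at 0.491 and 0.283 (ratio 0.80). Cells above the day 0 median of a cell-cycle score made up 56.5% and 44.2% of the libraries. Within the cells below that median and within those above it, the replication list had medians of 0.10 and 0.15, whereas the mitosis list went from 0.20 over all cells to -0.063 and -0.052. The score that split the cells holds 12 of the 29 replication genes and 13 of the 19 mitosis genes, so the split itself narrows these medians and they are a description only.

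The lists of H3K4 and H3K27 enzymes were near the middle of all genes. In the COMPASS and H3K4 demethylase list 0 of 29 genes were past 1.4-fold, 14 lay above 0 and the median was -0.074. Of the related H3K4 methyltransferases of COMPASS complexes, Kmt2a was at 1.11 and 1.38 (ratio -0.32), Kmt2b at 0.401 and 0.383 (0.066), Kmt2c at 0.911 and 1.15 (-0.33), Setd1a at 0.109 and 0.0903 (0.27) and Setd1b at 0.248 and 0.261 (-0.074). Kdm6a, the partner of Kmt2d, was at 0.178 and 0.207 (ratio -0.22). Of 24 enzymes and subunits of H3K27 methylation and acetylation 0 were past 1.4-fold, with a median of -0.078, and the ratios ran from -0.48 for Bmi1 to 0.31 for Kdm6b. Remodellers and DNA methylation genes lay below 0 in 30 of 37 cases, where 3948 of all 7117 genes did. Their median of -0.082 lay between -0.12 and -0.024 over the alternatives. Chd7, the remodeller whose loss causes CHARGE syndrome, was at 1.22 and 2.17 (ratio -0.83), and the DNA methyltransferase Dnmt3a at 0.406 and 0.587 (ratio -0.53).

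**Figure D3:**
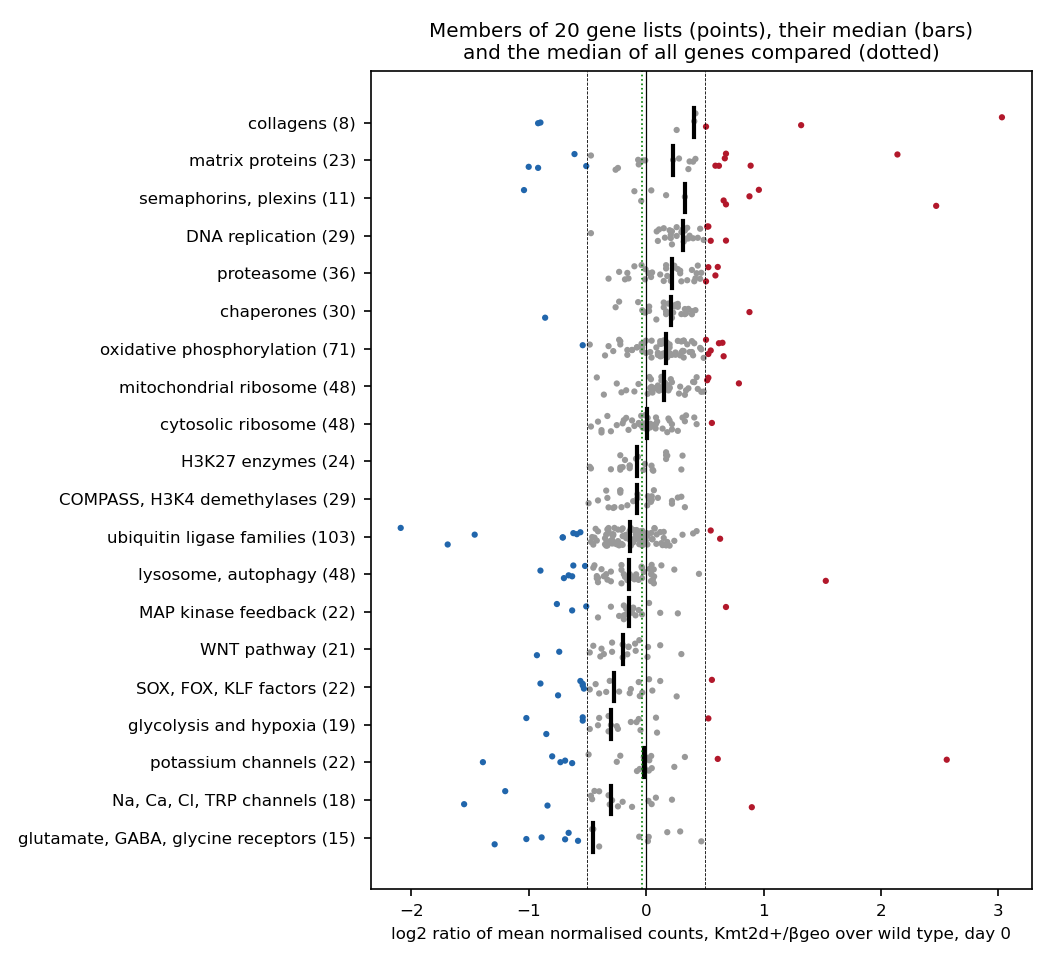
Log2 ratio of mean normalised counts (x axis) for each compared member of 20 gene lists, with the number compared in brackets, list medians as bars and members past 1.4-fold in red or blue. The potassium channel list includes KCTD genes. Medians run from -0.45 for glutamate, GABA and glycine receptors to 0.41 for collagens, whose median is -0.25 with a required mean of 0.5, and that of the matrix protein list (0.23) is then -0.0076.

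Genes past the thresholds were more often long than short. The 7117 genes were ranked by the span from start to end in the gene table and split into 5 groups of equal size. In the longest group, with a median span of 147 kb, 19.8% of genes were past 1.4-fold, against 7.16% in the shortest group with a median span of 8.80 kb. The longest group held 25 of the 48 higher and 45 of the 62 lower genes. The median log2 ratio ran from 0.070 in the shortest group to -0.14 in the longest, and at day 2 from 0.095 to -0.10. At day 4 it ran from -0.00062 to 0.066, and at day 8 it had no such order, at 0.025 in the shortest and 0.019 in the longest group. Thinned day 0 cells gave 0.071 and -0.15. RNA integrity, internal priming and the unspliced share were not tested.

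**Figure D4:**
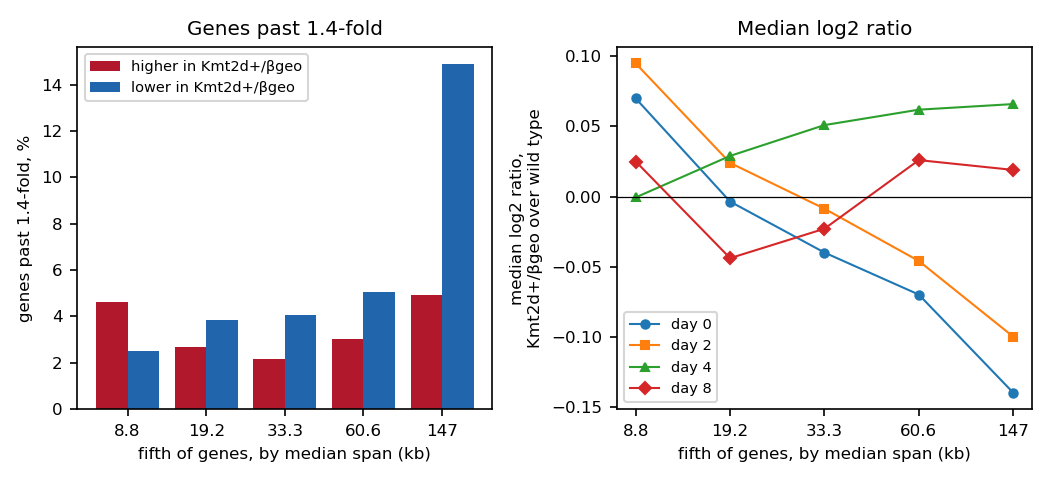
Left, percentage of genes past 1.4-fold in each of 5 groups by gene span, higher (red) and lower (blue) in Kmt2d+/βgeo at day 0, with the median span of the group in kb on the x axis. Right, median log2 ratio of each group at each day, which at day 0 runs from 0.070 to -0.14 while day 4 runs the other way, from -0.00062 to 0.066, and day 8 has no order (0.025 and 0.019).

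The called genes were spread over the chromosomes, and the neighbourhood of Kmt2d was read on its own because a trapped allele carries flanking sequence with it. Within 10 Mb of Kmt2d on chromosome 15 there were 70 other genes compared, of which 2 were past 2-fold higher and 2 lower. Past 1.4-fold were 17.1% of them, against 9.60% on the rest of the chromosome and 9.57% of all genes. The 2-fold genes were Lima1 and Cntn1 on the higher side and Scn8a and Nell2 on the lower. Adcy6, an adenylyl cyclase gene 0.242 Mb from Kmt2d, was at 0.102 and 0.0673 (ratio 0.60). Among all genes past 2-fold, 12 overlapped another gene of the matrix, in 13 pairs of which 7 shared the sign of the ratio. The highest overlapped ratio in size was that of Lncpint (-0.72), beside 2210408F21Rik (-2.06), at means of 0.0167 and 0.0274. The genes overlapped by Nell2 (Tmem117, 0.085), St3gal6 (Dcbld2, 0.11) and St6galnac5 (Pigk, 0.20) had the opposite sign. Of 209 genes compared on chromosome 18, 5 were past 2-fold lower and 0 higher, and of 477 on chromosome 7, 6 were higher and 2 lower. Over all genes 0.674% were past 2-fold higher and 0.871% lower. These chromosomes were picked after their counts were seen. The sources used here do not name the strain in which the allele was made, and the part of flanking sequence in these values was not tested. Gm47283, a noncoding gene placed on chromosome Y, was at 5.91 and 1.72 (ratio 1.79). Of 5 genes compared on chromosome Y, 1 (Gm47283) was past 1.4-fold higher and 0 lower, with a median of -0.21. In a list of 10 genes that escape X inactivation or are their Y-linked partners, 9 lay below 0, 0 were past 1.4-fold and the median was -0.20. That list pools X-linked and Y-linked genes, so its median describes neither kind alone. The part of embryo sex in these values was not tested.

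In each library nearly all cells lay beyond the median of the other library. Averaged over the 48 higher genes, the mean log2 value per cell had a median of 0.458 in Kmt2d+/βgeo, with 0.340 and 0.604 at the 10th and 90th percentiles, and of 0.212 in wild type, with 0.135 and 0.314. For the 62 lower genes these were 0.182 (0.117 to 0.268) and 0.393 (0.287 to 0.514). In Kmt2d+/βgeo 99.7% of cells lay above the wild-type median for the higher genes. These genes were chosen by the same contrast, so the separation is a description. All 48 higher and all 62 lower genes kept their sign among cells with a low cell-cycle score and among those with a high one, with 45 and 52 past 2-fold in the former and 45 and 53 in the latter. They also kept it among the 345 and 122 cells without an Olig2 UMI, with 27 and 43 past 2-fold. All these groups are parts of the cells by which the genes were chosen, so the kept signs are a description only.

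The same genes were then read at the later days, when growth factors had been withdrawn, in other libraries of the same labels. Each genotype carries the same sample number in the labels of every day. A difference that recurs at a later day therefore cannot separate genotype from culture or litter. At day 2, 44 of the 48 higher genes again reached a mean of 0.1 in either library, and of these 43 were higher and 32 past 2-fold, where 1.10% of the 6831 genes reaching it at both days were past 2-fold higher. Of the 62 lower genes 57 reached it, 54 were again lower and 23 past 2-fold, against 1.04%. At day 8, 38 of the 44 higher genes that reached it were again higher and 23 past 2-fold, against 1.60% of 6763 genes. Of the 51 lower genes that reached it 45 were lower and 15 past 2-fold, against 2.54%. Irx5 had ratios of 3.22 and 2.97 at days 2 and 8, Nr2f2 2.71 and 3.21, and Col11a1 2.91 and 2.95. St3gal6, in contrast, was at -0.42 and -0.086. Rarb was at -0.28 and -0.16, but its day 2 means of 0.0583 and 0.0707 were short of 0.1. At day 4 the 48 genes ranged from -0.44 to 0.39 and the 62 from -0.21 to 0.40, so neither set was apart between the day 4 libraries. Over all genes the SD of the ratio was 0.11 at day 4 against 0.34 at day 0, so the day 4 libraries were close throughout. Nr2f2 was at 0.0663 and 0.0617 at day 4. At days 2 and 8 it was at 0.413 and 0.645 in Kmt2d+/βgeo and at 0.0631 and 0.0694 in wild type. Irx5 was at 0.0599 and 0.0525 at day 4, near its wild-type means of 0.0412 and 0.0467 at days 2 and 8. These genes were picked after their values were seen, and the reason was not tested. The sources used here do not settle whether the day 4 libraries come from separate cultures of the labelled genotypes.

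**Figure D5:**
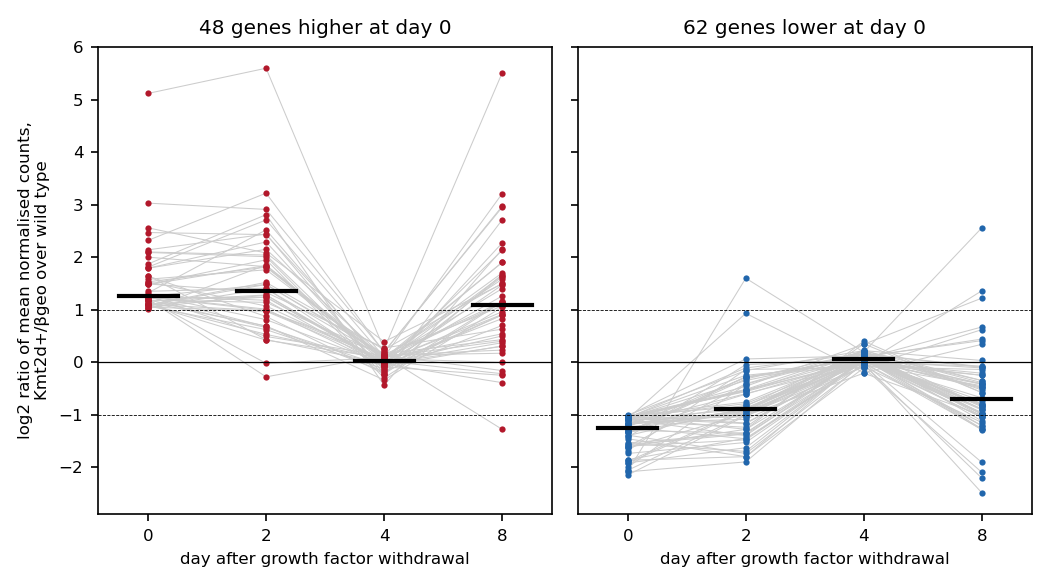
Log2 ratio of mean normalised counts (y axis) of the 48 higher (left) and 62 lower genes (right) of day 0 at days 0, 2, 4 and 8 (x axis), with 1 point per gene, a line joining each gene, bars at medians and dashed lines at 2-fold. The medians are 1.27, 1.37, 0.021 and 1.10 for the higher genes and -1.24, -0.90, 0.066 and -0.71 for the lower genes.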

How the data were processed

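According to the methods, molecules were counted by the authors with alevin (Salmon 1.3.0) on GRCm38 and the spliced ones kept as expression. They removed outlier cells by UMIs, genes, mitochondrial share and doublet score, so no doublet caller was run here. The deposited matrix holds log2 values of library-size normalised counts plus 1 for 9140 genes. The deposited cell table gives total UMIs as the authors' estimated count.

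Values were turned back to normalised counts, which summed to 8707.1 in every cell. The commonest value of a cell was taken as 1 UMI, and 86.7% of nonzero values then lay within 0.01 of a whole UMI. These estimated UMIs, rounded, served for summed counts, exact (Clopper-Pearson) conditional intervals and thinning to 3000 UMIs. Genes with a mean of at least 0.1 in either library were compared by the log2 ratio of means. Groups came from the labels, and no test was run, because each group is 1 library. The ratio, interval and threshold steps were tested on simulated counts.

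The genes and lists were chosen with earlier results of these data known. By rule, named genes were drawn from Kmt2d, the COMPASS and H3K27 lists, and the 15 highest and 15 lowest ratios. Up to 4 genes per list and direction past 1.4-fold and the most abundant gene of each list were also drawn on. So were genes past 2-fold whose family or position is described. Not all genes that meet this rule are named in the text. Slc1a3, Pax6, Top2b, Tmem117, Dcbld2, Pigk, Lncpint, Grip1, Gripap1, Gria3, S100b, Ednrb, Mlc1, Lgals1 and Dbi were named outside this rule, and genes were grouped by function, after their values were seen. The alternatives changed the scale, the minimum mean, centring, depth and the cells used. Calculations used Python with numpy, pandas and scipy. Gene positions are from the deposited gene table, and 9137 of its identifiers are in GENCODE M21.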

Additional observations from a re-analysis of the deposited data

Results flagged for a closer look

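Apoe, Ildr2, Gucy1a1 and Gm49980 drew attention because they were past 2-fold at day 0 and past 2-fold in the opposite direction at a later day, with a mean of at least 0.1 in either library at both. Apoe had a log2 ratio of 1.26 at day 0 and -1.28 at day 8, where its means were 94.7 and 230 with Kmt2d+/βgeo first. Ildr2, a membrane protein of the immunoglobulin family, went from -1.08 to 1.22 at day 8, and Gucy1a1, a subunit of soluble guanylate cyclase, from -1.17 to 1.36. The noncoding gene Gm49980 was at -2.08 at day 0 and at 1.60 at day 2. None of these differences between days was tested, as each library stands alone.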

How the results depend on the processing

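No paired analysis was possible because each group holds 1 library and the result comes from no test. The 48 higher and 62 lower genes past 2-fold became 1 and 1 as differences of mean log2 values, a scale that shrinks low genes, 12 and 15 with a mean of at least 0.5 in either library, 23 and 31 with at least 0.1 in both, and 99 and 111 with no minimum. In the 345 and 122 cells without an Olig2 UMI, whose counts are few, they were 154 and 159. Past 1.4-fold, the 248 and 433 became 22 and 21 as differences of mean log2 values, 116 and 187 with a mean of 0.5, and 802 and 938 without Olig2, and the higher count became 458 with no minimum. Pooled UMIs, centring, thinning, leaving out the deepest 5% of cells, cells below or above the median cell-cycle score and cells with Olig2 left all 4 counts within 1.5 times.

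With a mean of 0.5 the collagen median was -0.25 and that of the matrix list -0.0076, from 0.41 and 0.23. The mitosis median was -0.063 and -0.052 below and above the median cell-cycle score, from 0.20. Without Olig2 the hedgehog median was 0.15, from -0.20, and 9 genes changed sign there: Vangl1 (0.11), Ptprd (-0.094), Lpl (0.059), Zfp846 (0.029), Rnf182 (-0.40), Il17rd (0.0034), Slc15a2 (-0.15), Pcdhga4 (0.37) and Hbegf (-0.93). Beside the lists above, 19 of the 61 medians moved by at least 0.1 as differences of mean log2 values, 13 with a mean of 0.5 and 23 without Olig2. The cause was not tested.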
